A study of Mus musculus with 24 samples.

Results

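The genes described here are the spliceosomal and RNA-binding proteins whose symbols begin with Srsf and a digit (SR proteins), Hnrnp (heterogeneous nuclear ribonucleoproteins, hnRNPs), Sf3a or Sf3b and a digit (the SF3 complexes of the U2 particle) or Snrp (Sm and other proteins of the small nuclear ribonucleoproteins, snRNPs). A gene entered when it had a value above 0 in all 24 libraries, which 41 of the 49 genes with such a symbol did, among 5035 such genes of 22418 listed. They comprised 17 hnRNP, 8 SR, 9 Sm and snRNP and 7 SF3 genes. Of the 8 genes left out, Sf3b5, Snrpa, Snrpg, Srsf2 and Srsf4 lacked a value in a single library, the white D5 RPF library 2, Hnrnph3 in 2 libraries, Snrpn in 11 and Srsf12 in 23, and no result below covers them.

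Ribosome-protected fragments (RPF, the pieces of mRNA covered by translating ribosomes) and RNA were sequenced in parallel from C57BL/6 mice, with 2 libraries in each of 6 groups per assay. The cultures were primary stromal vascular cells differentiated in vitro and taken at D5, against confluent preadipocytes at D0. Brown cultures came from interscapular brown fat and white cultures from inguinal, that is subcutaneous, fat of young mice, and both lineages received the same induction with insulin, dexamethasone, IBMX and rosiglitazone followed by insulin. The tissues were interscapular brown fat (BAT) and epididymal fat (eWAT) of male mice aged 6 weeks, each library pooled from 3 mice, and both tissues and both assays drew on the same mice. The white tissue was thus visceral while the white culture was subcutaneous. Cultures of stromal vascular cells can hold cells that do not become adipocytes, and in all these bulk samples fewer cells of a type and less RNA per cell cannot be told apart. The descriptions do not say whether the 2 culture libraries of a group were separate cultures, so p-values measure the spread between these libraries, which may be technical.

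Spliceosomes remove introns from pre-mRNA. The Sm proteins form a ring around the RNA of most snRNPs, and the SF3a and SF3b complexes hold the U2 snRNP at the branch point. SR proteins and hnRNPs bind the pre-mRNA and often act on the same exons in opposite directions, SR proteins mostly promoting and hnRNPs often repressing their use. Many of the genes of both families make another transcript with an early stop codon through which the protein limits its own level, and alternative splicing of adipogenic regulators is known in fat cells.

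Levels are RPKM, read counts over the coding sequence scaled by its length and by the mapped reads of the library, on 1 transcript per gene, so different transcripts of a gene could not be told apart. Translational efficiency (Eff) is RPF RPKM divided by RNA RPKM. Whole reads could be recovered for 39 of the 41 genes. The RNA libraries held between 3757577 and 12307821 reads on the scale recovered from the values and gave every one of these genes at least 38 reads, and the RPF libraries held between 217395 and 1765714. The brown D0 RPF libraries were the shallowest, with a median of 23 and 24 reads for these genes and 17 and 16 genes under 20 reads. For 25 genes whose RNA rose at least 32-fold in brown cultures, the D0 footprint level was taken as a percent of the D5 level. The same percent in RNA was then subtracted. The median of what was left was 2.63% and 3.86% in the brown D0 RPF libraries. For 31 genes chosen alike in white cultures it was 7.58% and 7.87% in the white D0 RPF libraries. Adipocyte genes (7 of 9 measured) summed to 52710 and 55770 RNA RPKM in brown D5 and 46160 and 47350 in white D5, against 523.3 and 541.9 in brown D0 and 172.7 and 155.8 in white D0. None of the 8 brown adipocyte genes checked, Ucp1 among them, had a value in every library, and no endothelial, muscle or blood marker did.

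The sequence just before the start site is shown for 5 genes that recur below, Hnrnpa1 and Hnrnpa0, whose footprints fell most in brown cultures, Hnrnpd, whose D5 change in footprints differed between the lineages, and Srsf5 and Srsf6, the SR genes with the highest RNA levels. Each line gives the last 100 bases before the RefSeq start site, 5′ to 3′ on the gene's strand (mouse GRCm38.p6). Capitals mark the CCAAT box (CCAAT), the GC box (GGGCGG), the ETS core (CCGGAAG) and the E box (CACGTG) in either orientation.
Hnrnpa1 (chr15:103240297-103240396, + strand): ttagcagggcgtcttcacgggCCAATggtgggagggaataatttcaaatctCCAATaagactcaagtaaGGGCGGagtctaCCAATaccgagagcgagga
Hnrnpa0 (chr13:58128557-58128656, - strand): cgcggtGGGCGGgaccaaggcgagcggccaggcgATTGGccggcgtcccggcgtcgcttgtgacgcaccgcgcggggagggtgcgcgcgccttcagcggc
Hnrnpd (chr5:99978939-99979038, - strand): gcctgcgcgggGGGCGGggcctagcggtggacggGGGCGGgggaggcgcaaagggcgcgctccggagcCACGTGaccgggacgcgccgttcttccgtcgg
Srsf5 (chr12:80945399-80945498, + strand): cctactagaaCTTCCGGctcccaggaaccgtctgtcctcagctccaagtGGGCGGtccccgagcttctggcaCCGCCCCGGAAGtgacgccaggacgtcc
Srsf6 (chr2:162931408-162931507, + strand): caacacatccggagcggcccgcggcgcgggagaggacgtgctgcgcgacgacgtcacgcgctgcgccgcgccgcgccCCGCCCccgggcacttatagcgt
Hnrnpa1 held 3 CCAAT boxes, at 79, 49 and 19 bases before its start, around a GC box at 31, while Hnrnpd and Srsf6 held GC boxes and no CCAAT in these bases. In Srsf5 a GC box and an ETS core shared bases at 28 and 23 bases before the start. Over the 250 bases before the start, 8 motifs were searched on both strands. CCAAT was found in 51.35% of the 37 members with a promoter sequence, against 40.08% of 3770 tested genes and 37.49% of all 27025. The ETS core was found in 32.43%, 18.17% and 7.83% of the same sets and the GC box in 70.27%, 69.39% and 35.36%. The E box, the TATA box (TATAAA) and the NRF1 motif were in 3, 3 and 1 of the members (E box 11.41%, TATA box 6.9% and NRF1 motif 2.18% of tested genes), and the YY1 motif and the CRE (TGACGTCA) in 0. These matches describe letters and not binding.

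The 41 genes took a larger share of both footprints and RNA in preadipocytes than in any other group. Of the summed RPF RPKM of the 5035 genes they took 0.627% and 0.638% in brown D5, against 1.05% and 1.08% in brown D0, and 0.613% and 0.628% in white D5, against 1.27% in both white D0 libraries. Their share of RNA was 0.503% and 0.498% in brown D5, against 0.966% and 0.932% in brown D0, and 0.447% and 0.417% in white D5, against 1.06% and 1.07% in white D0. Tissues lay below both D0 groups, with 0.511% and 0.516% of RPF in BAT, against 0.681% and 0.621% in eWAT. In RNA the share was 0.514% and 0.483% in BAT, against 0.734% and 0.775% in eWAT. The 2 groups of each pair did not overlap in either assay.

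**Figure D1:**
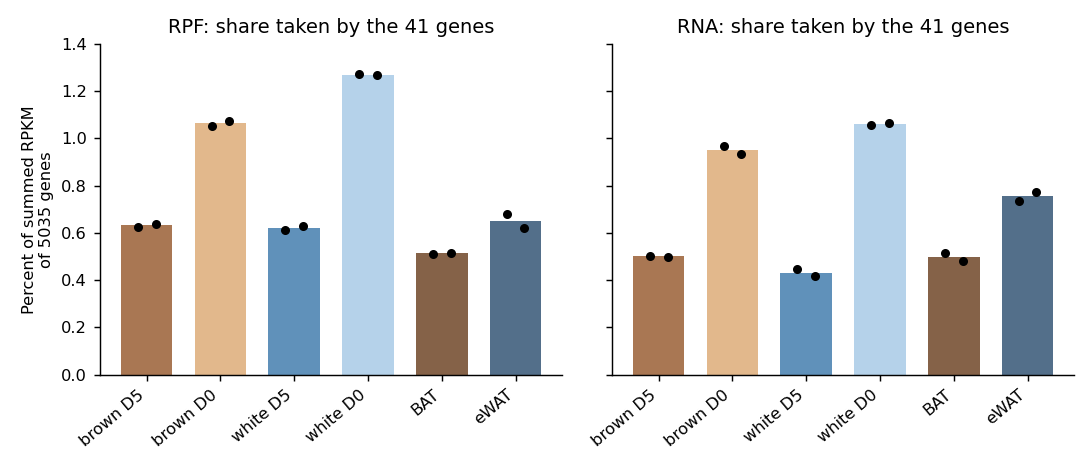
Share of the summed RPKM of 5035 genes (percent) that the 41 splicing genes took, RPF on the left and RNA on the right, in each of 6 groups, with bars for the mean of 2 libraries and points for each library. Both D0 groups stand above all others, with RPF shares between 1.05% and 1.27%.

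Single genes led each group. Hnrnpk, which binds C-rich single strands through KH domains, had the highest mean RPF level in brown D5, white D5, white D0 and eWAT, at 617, 535, 859 and 546 RPKM. In brown D0 it was second, at 455 RPKM, to Hnrnpa1, a repressor of exon use that shuttles out of the nucleus, at 1173 RPKM. BAT was led by Hnrnpa2b1, which binds and sorts RNA in transport granules, at 342 RPKM, with Hnrnpk at 332 RPKM, and their library values overlapped. Sf3a2, a small subunit of SF3a, had the lowest RPF level in every group except brown D0 and the lowest RNA level in all 6. Among Sm and snRNP genes the highest RNA levels over all libraries were those of the Sm ring genes Snrpd2 and Snrpb, and among SF3 genes those of Sf3b2 and Sf3b1. The member median of Eff was above the gene median in each group. It was 1.229 against 0.9013 in brown D5, 0.978 against 0.9226 in brown D0, 1.464 against 0.9764 in white D5 and 1.225 against 1.034 in white D0. In tissue it was 1.024 against 0.8624 in BAT and 0.8595 against 0.8562 in eWAT.

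RNA of most of these genes fell with differentiation in both lineages. At an adjusted p under 0.05, 32 of 41 fell and 1 rose in brown cultures at D5 against D0, where 44.9% of all genes fell and 29.7% rose, while 38 fell and 0 rose in white cultures, where 53.4% of all genes fell and 27.5% rose. The count of 0 rises in white cultures was also 0 at an unadjusted p under 0.05 in limma and with voom weights, while Snrpc rose after median-of-ratios scaling. Their median log2 change was -0.61 in brown cultures beside -0.20 over all genes, and -0.91 in white cultures beside -0.37. The 2 comparisons share no library but use the same variance for each gene, so their calls are not independent. In both, 31 genes fell, beside 39.8% of all genes. One of them, Sf3a1, fell by 0.32 in white cultures, a change that stood at 0.000551 after quantile scaling. By class, 15 of 17 hnRNP, 5 of 8 SR, 6 of 9 Sm and snRNP and 6 of 7 SF3 genes fell in brown cultures, and 16, 8, 7 and 7 of them in white cultures.

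The steepest falls in RNA were in hnRNP and SR genes. Hnrnph1, which binds G-rich tracts, had 41.6 and 36.3 RPKM in white D5, against 237 and 236 in white D0, a log2 change of -2.61 ± 0.11 (SE), adjusted p = 1.07e-10. Its brown libraries had 74.7 and 81.9 RPKM at D5, against 221 and 202 at D0. The D5 and D0 values stood apart in both lineages, by 6.08-fold in the white means and 2.71-fold in the brown means. Hnrnpa3, a close relative of Hnrnpa1, had 112 and 112 RPKM in brown D5, against 388 and 379 in brown D0 (-1.78 ± 0.083 SE, adjusted p = 3.56e-10). In white cultures it had 95.0 and 86.9 RPKM in white D5, against 436 and 439 in white D0 (-2.27 ± 0.083 SE, adjusted p = 3.26e-11). It was among the 3 largest falls of each lineage. Srsf3, the smallest SR protein, had 61.7 and 60.9 RPKM in brown D5, against 195 and 201 in brown D0 (-1.69 ± 0.12 SE, adjusted p = 1.8e-08). Srsf7, an SR protein with a zinc knuckle, had 25.1 and 26.3 RPKM in white D5, against 109 and 94.4 in white D0 (-1.98 ± 0.11 SE, adjusted p = 1.59e-09). Neither gene's groups overlapped.

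Srsf5 stood apart from the other SR genes in brown cultures. Its RNA was 326 and 300.0 RPKM in brown D5, against 268 and 243 in brown D0, a log2 change of 0.29 ± 0.10 (SE), adjusted p = 0.015. In white cultures it was 124 and 111 RPKM at D5, against 318 and 309.6 at D0, a log2 change of -1.42 ± 0.10 (SE), adjusted p = 1.89e-08. The rise in brown cultures was small and its direction depended on the scaling, since it was -0.09 after quantile scaling, and it missed the threshold without RNA brown D5 library 1 or brown D0 library 2. Srsf6, which like Srsf5 was first known as a splicing enhancer protein, fell in both. It had 129 and 119.6 RPKM in brown D5, against 183 and 167 in brown D0 (-0.49 ± 0.10 SE, adjusted p = 0.000423), and 87.3 and 83.6 RPKM in white D5, against 203 and 196 in white D0 (-1.23 ± 0.10 SE, adjusted p = 7.67e-08). Among the genes whose RNA change missed the threshold in both lineages was Snrpc, the U1-C protein of the U1 snRNP, with log2 changes of 0.23 ± 0.13 in brown and 0.22 ± 0.13 in white cultures (SE, adjusted p = 0.144 and 0.14).

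Fewer of these genes fell in footprints than in RNA, as over all genes, and among these genes above all in brown cultures. In brown cultures 14 of 41 genes fell in RPF and 6 rose, where 34.7% of all genes fell and 26.0% rose, so the share that fell (34.1%) lay near that of all genes and the share that rose (14.6%) below it, with a median of -0.16 for both. After median-of-ratios scaling 12 rose and 11 fell. With the median percent of D5 footprints given above subtracted from the D0 libraries, 10 rose and 12 fell. In white cultures 29 fell and 0 rose, where 36.1% of all genes fell and 16.7% rose (0 rises also at an unadjusted p under 0.05 in limma and with voom weights, and 1, Srsf5, after median-of-ratios scaling), with a median of -0.84 beside -0.38. Falls in both lineages were seen in 13 genes, beside 23.1% of all genes: 4 hnRNP genes (Hnrnpa0, Hnrnpa1, Hnrnpa3 and Hnrnph1), the SR genes Srsf3 and Srsf7, the Sm ring genes Snrpb, Snrpd2 and Snrpf, and Sf3a1, Sf3a3, Sf3b2 and Sf3b4. By class the RPF falls in brown cultures were 4 hnRNP, 2 SR, 3 Sm and snRNP and 5 SF3 genes, and in white cultures 12, 3, 8 and 6.

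**Figure D2:**
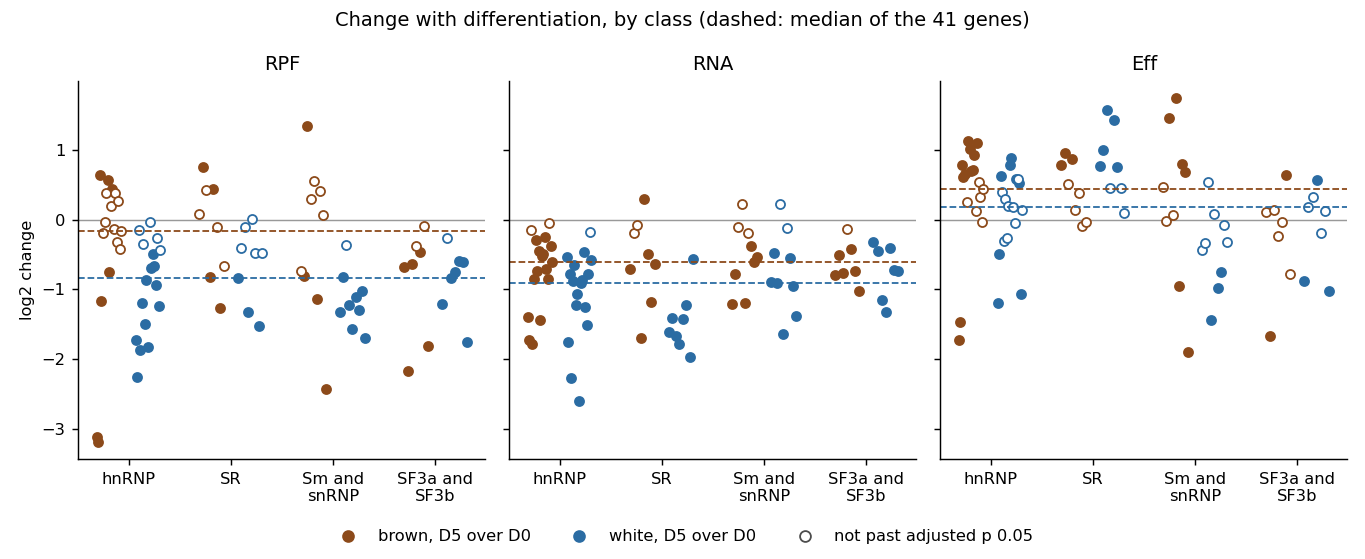
Log2 change of D5 over D0 in RPF, RNA and Eff for each of the 41 genes by class, brown cultures in brown and white cultures in blue, filled where the adjusted p (limma) was under 0.05, with dashed lines at the member medians. In RNA 32 brown and 38 white points lie below 0 and are filled, while in RPF this holds for 14 brown and 29 white points.

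Hnrnpa1 and Hnrnpa0 carried the largest falls in footprints. Hnrnpa1 had 140.2 and 118 RPF RPKM in brown D5, against 1265 and 1081 in brown D0, a log2 change of -3.19 ± 0.15 (SE), adjusted p = 1.1e-09. White cultures had 139 and 174 RPKM at D5, against 782 and 703 at D0 (-2.25 ± 0.15 SE, adjusted p = 6.1e-08). The means differed by 9.09-fold in brown and 4.75-fold in white cultures, while its RNA differed by 3.30-fold and 3.38-fold. Hnrnpa0, known for binding AU-rich elements of mRNA, had 39.8 and 53.1 RPF RPKM in brown D5, against 400.4 and 401 in brown D0 (-3.12 ± 0.22 SE, adjusted p = 5.53e-08). Its RNA was 91.3 and 87.6 RPKM in brown D5, against 239 and 230.5 in brown D0. In white cultures its RPF was 72.1 and 50.6 RPKM at D5, against 185 and 215 at D0. No D5 value of either gene reached a D0 value. Hnrnpa1 and Hnrnpa3 have processed pseudogenes, and reads were placed at 1 site each. Whether reads that match such copies, or several of Hnrnph1, Hnrnph2 and Hnrnpf, were dropped or placed at 1 of them is not given in the sources used here, so their levels are uncertain to that extent.

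Other falls in brown footprints included Snrpf, an Sm ring protein, with 50.7 and 30.6 RPKM in brown D5, against 127 and 354 in brown D0 (-2.43 ± 0.45 SE, adjusted p = 0.000411). The D0 value rests on 8 and 20 reads, and the duplicates differed widely. In white cultures the falls in Hnrnpa3 (-1.88 ± 0.14 SE, adjusted p = 1.88e-07) and Hnrnph1 (-1.82 ± 0.18 SE, adjusted p = 2.34e-06) followed that of Hnrnpa1 in size. The 6 genes that rose in brown footprints were Hnrnpa2b1, Hnrnpf, Hnrnpk, Srsf5, Srsf10 and Snrpb2, a U2 snRNP protein. Snrpb2 had 70.4 and 76.4 RPKM in brown D5, against 30.5 and 27.2 in brown D0 (1.35 ± 0.20 SE, adjusted p = 7.35e-05), where D0 rests on 5 and 4 reads. The SE comes from 1 variance per gene over the 12 RPF libraries, so with so few reads it can understate the counting error. Srsf10, which can repress splicing when dephosphorylated, had 138 and 129.9 RPKM in brown D5, against 89.0 and 70.0 in brown D0 (0.76 ± 0.19 SE, adjusted p = 0.00304). Hnrnpa2b1 had 424 and 461 RPKM in brown D5, against 269.6 and 301 in brown D0 (0.64 ± 0.13 SE, adjusted p = 0.000979), a call that was lost after quantile scaling. The D5 libraries of these 3 genes lay above both D0 libraries.

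Eff rose for 17 of 41 genes and fell for 5 in brown cultures, where 16.1% of all genes rose and 19.9% fell, and the member median was 0.44 beside 0.02 over all genes. In white cultures 11 rose and 8 fell, where 7.94% and 16.3% of all genes did, and the median was 0.18 beside -0.11. The white split was 11 higher and 5 lower after median-of-ratios scaling and 15 and 2 after quantile scaling, and without RNA white D5 library 2 it was 2 and 4. Because RNA enters Eff as its denominator, a chance difference in an RNA library moves Eff the opposite way. Rises in both lineages were seen for 6 genes, Hnrnpa2b1, Hnrnph1, Hnrnph2, Hnrnpm, Srsf1 and Srsf10, beside 2.58% of all genes. RNA fell and Eff rose for 14 genes in brown and 11 in white cultures, where 7.67% and 6.91% of all genes did. In brown cultures Hnrnpf and Hnrnpk fell in RNA and rose in RPF. Hnrnpk had 633 and 601 RPF RPKM in brown D5, against 457 and 453 in brown D0 (0.44 ± 0.11 SE, adjusted p = 0.00368). It had 318 and 311 RNA RPKM in brown D5, against 446 and 439 in brown D0 (-0.49 ± 0.090 SE, adjusted p = 0.000245).

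The largest rises in Eff in brown cultures were those of Snrpd1, an Sm ring protein (1.74 ± 0.33 SE, adjusted p = 0.000505), Snrpb2 (1.45 ± 0.26 SE, adjusted p = 0.000299) and Hnrnpd, also called AUF1, a factor of mRNA decay (1.13 ± 0.21 SE, adjusted p = 0.000471). Snrpd1 rests on 5 and 4 RPF reads in brown D0. Hnrnpd had 129 and 147 RPF RPKM in brown D5, against 105 and 107 in brown D0, with 56.5 and 57.7 RNA RPKM in brown D5, against 105 and 87.5 in brown D0. Its footprints thus stood slightly higher while its RNA stood lower. The largest falls in Eff there were those of Snrpf (-1.90 ± 0.54 SE, adjusted p = 0.00995, lost without RPF brown D5 library 2 or brown D0 library 2), Hnrnpa0 (-1.73 ± 0.33 SE, adjusted p = 0.000431) and Sf3a2 (-1.66 ± 0.54 SE, adjusted p = 0.0223). Sf3a2 had 8 and 14 RPF reads in brown D5, against 10 and 12 in brown D0, and missed the threshold under 5 alternatives. In white cultures Srsf11, an SR-related protein (1.57 ± 0.25 SE, adjusted p = 0.00015), Srsf5 (1.43 ± 0.15 SE, adjusted p = 9.17e-07) and Srsf10 (1.00 ± 0.25 SE, adjusted p = 0.00674) rose most, and all 5 SR genes that changed in Eff rose. The Srsf10 call was lost without RNA white D5 library 2. For Srsf5 the footprints were 245 and 229 RPKM in white D5, against 239 and 233 in white D0, so the ranges overlapped while the RNA was lower at D5. Eff fell most in white cultures for Snrpc (-1.44 ± 0.37 SE, adjusted p = 0.00804), Hnrnpa0 (-1.19 ± 0.33 SE, adjusted p = 0.0113) and Hnrnpul1, an hnRNP U-like protein (-1.06 ± 0.21 SE, adjusted p = 0.00122). For Snrpc the white D5 footprints were 102 and 43.0 RPKM from 39 and 8 reads, and its call was lost under 1 alternative and that of Hnrnpa0 under 4.

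The sums of markers of dividing cells and of fibroblasts moved with the same contrast. The 8 measured proliferation genes of 15 summed to 134.8 and 125.2 RNA RPKM in brown D5, against 376.9 and 383.3 in brown D0, and to 155.8 and 151.4 in white D5, against 447.5 and 442.1 in white D0. All 8 fell in both lineages, where 44.9% of all genes fell in brown and 53.4% in white cultures. The 10 fibroblast genes summed to 2661 and 2612 RNA RPKM in brown D5, against 19670 and 19390 in brown D0, and to 6177 and 5675 in white D5, against 19550 and 19740 in white D0. In white cultures the fibroblast genes Lum and Dpt went against the sum, while the others stood lower at D5. Lum had 79.7 and 71.4 RNA RPKM in white D5, against 32.5 and 35.4 in white D0. Dpt had 203.7 and 224.2 in white D5, against 199.8 and 201.5 in white D0. The part of these markers in the falls of the splicing genes was not tested.

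**Figure D3:**
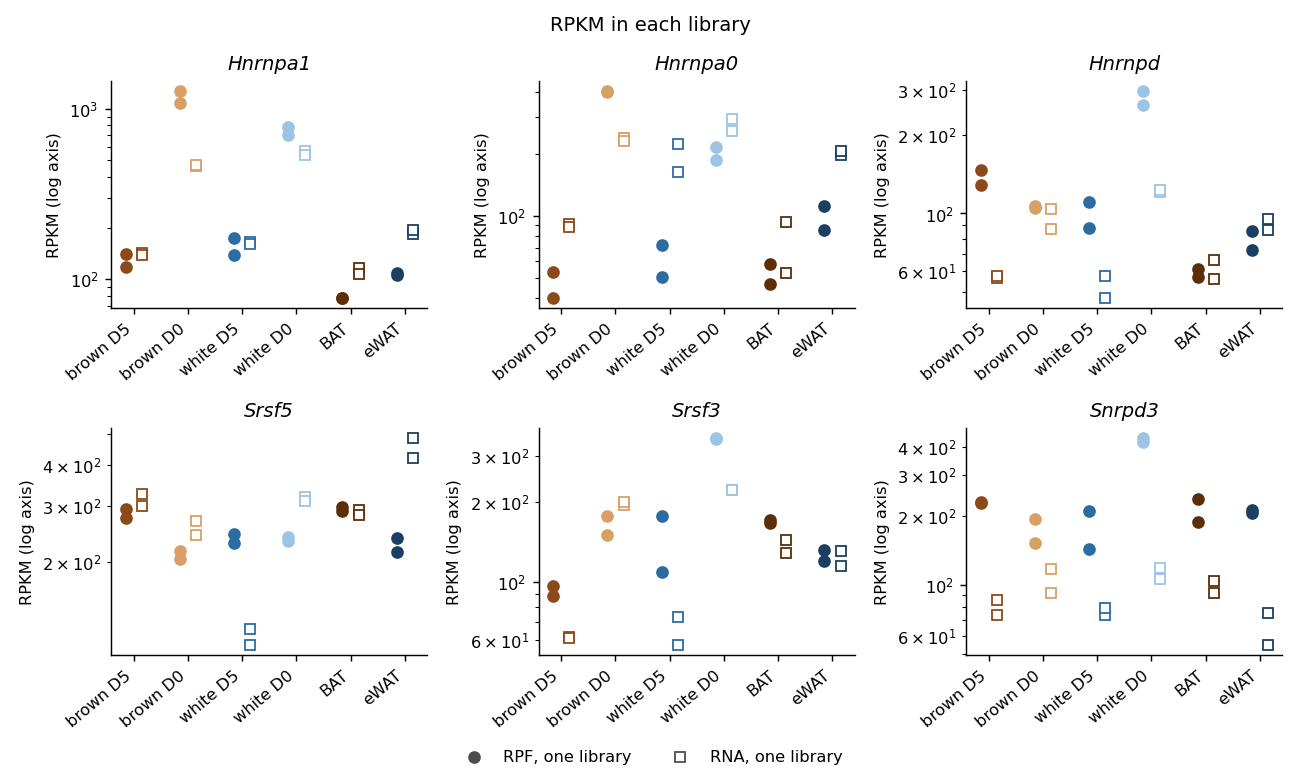
RPKM (log axis, a separate range per panel) of Hnrnpa1, Hnrnpa0, Hnrnpd, Srsf5, Srsf3 and Snrpd3 in each of the 6 groups, filled circles for RPF libraries and open squares for RNA libraries. Hnrnpa1 footprints lie at 1265 and 1081 RPKM in brown D0, above all other groups, and Srsf5 RNA is lowest in white D5.

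Brown and white preadipocytes differed in more of these genes in footprints than in RNA, as they did over all genes. At D0, 18 of 41 genes were lower and 3 higher in RPF in brown than in white cultures, where 24.9% of all genes were lower and 12.4% higher, with a median log2 difference of -0.38 beside -0.18. In RNA 0 were lower and 0 higher by limma, where 0.854% and 2.90% of all genes were. At an unadjusted p under 0.05, 10 were lower in RNA. With other settings the adjusted threshold was passed, always as lower in brown D0, by 1 gene with voom weights, 3 without either RNA BAT library, 5 after quantile scaling (Hnrnpd, Hnrnpf, Hnrnpl, Srsf5 and Srsf11) and 12 with the compared groups fitted alone. In Eff 16 were lower and 3 higher, where 22.2% and 10.9% of all genes were, and after quantile scaling 9 were lower and 7 higher. The brown D0 side of these footprint values rests on the 2 shallowest RPF libraries. Markers of other cells also differed in these libraries. Proliferation genes summed to 442.8 and 373.6 RPF RPKM in brown D0, against 664.9 and 714.5 in white D0, with 3 of 8 lower and 0 higher in limma (0 higher also at an unadjusted p under 0.05). Fibroblast genes summed to 28330 and 28960 RPF RPKM in brown D0, against 18840 and 19340 in white D0, with 3 of 10 higher and 4 lower. Lyz2, the single immune marker of 13 with a value in every library, had 74.0 and 41.3 RPF RPKM in brown D0, against 254 and 205 in white D0. Their part in the footprint differences was not tested.

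The genes lower in brown D0 footprints were led by Snrpd1 (-1.53 ± 0.24 SE, adjusted p = 0.000468), Hnrnpd (-1.40 ± 0.17 SE, adjusted p = 7.92e-05) and Snrpd3 (-1.31 ± 0.19 SE, adjusted p = 0.000229), of which Snrpd1 and Snrpd3 are Sm ring proteins. Snrpd1 rests on 5 and 4 reads in brown D0, so its SE can understate the counting error. Hnrnpd had 105 and 107 RPF RPKM in brown D0, against 296 and 263 in white D0. Snrpd3 had 152 and 194 RPKM in brown D0, from 14 and 16 reads, against 434 and 418 in white D0. The lineages did not overlap in either gene. In RNA the same groups of Snrpd3 had 91.6 and 117 RPKM in brown D0, against 118 and 106 in white D0, values that did overlap. Higher in brown D0 were Hnrnpa0 (1.00 ± 0.22 SE, adjusted p = 0.00413), Hnrnpa1 (0.66 ± 0.15 SE, adjusted p = 0.00542) and Sf3a2 (1.34 ± 0.47 SE, adjusted p = 0.0406). Sf3a2 rests on 10 and 12 reads in brown D0, against 4 and 19 in white D0, and was lost under 9 of 21 alternatives. The members with the largest Eff differences at D0 included the same 3 higher genes, Sf3a2 (1.73 ± 0.54 SE, adjusted p = 0.0193, lost under 5 alternatives, with values from 0.85 to 2.61), Hnrnpa0 (1.24 ± 0.33 SE, adjusted p = 0.00655) and Hnrnpa1 (0.90 ± 0.17 SE, adjusted p = 0.000543). Those lowest in Eff were Snrpd1 (-1.39 ± 0.33 SE, adjusted p = 0.00344), Snrpa1, a U2 snRNP protein (-1.23 ± 0.43 SE, adjusted p = 0.032), and Snrpd3 (-1.20 ± 0.26 SE, adjusted p = 0.00192). Snrpa1 had 10 and 5 RPF reads in brown D0 and was lost under 8 alternatives.

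At D5 the order of assays was the other way round, with more calls in RNA than in footprints, and this also held over all genes. In RNA 18 of 41 genes were higher and 6 lower in brown than in white cultures, where 32% of all genes were higher and 19.9% lower, with a median of 0.23 beside 0.08, and after median-of-ratios scaling 15 were higher and 10 lower. In RPF 2 (4.88%) were higher and 0 lower, where 5.48% and 8.26% of all genes were, so the share higher lay near that of all genes. At an unadjusted p under 0.05, 6 were higher and 1 lower in RPF. The RNA differences included 6 SR genes, all higher in brown D5, with 10 hnRNP genes higher and 2 lower. Of the SF3 genes 1 was higher and 2 lower, and of the Sm and snRNP genes 1 was higher and 2 lower. Srsf5 had 326 and 300.0 RNA RPKM in brown D5, against 124 and 111 in white D5 (1.42 ± 0.10 SE, adjusted p = 7.96e-07). Srsf10 had 56.1 and 64.8 RPKM in brown D5, against 29.1 and 22.1 in white D5 (1.25 ± 0.15 SE, adjusted p = 4.2e-05). Srsf11 had 73.4 and 68.9 RPKM in brown D5, against 32.2 and 29.8 in white D5 (1.20 ± 0.11 SE, adjusted p = 6.16e-06). All 3 were above 2-fold in the means and without overlap. In the same libraries Lyz2 had 40.8 and 41.2 RNA RPKM in brown D5, against 153 and 162 in white D5. Of the fibroblast genes, whose sums are given above, 9 of 10 were lower in brown D5 RNA, and of the proliferation genes 4 of 8. Their part in these differences was not tested.

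Lower in brown D5 RNA were Hnrnpa0 (-1.09 ± 0.21 SE, adjusted p = 0.000818), the SF3a subunit Sf3a1 (-0.49 ± 0.10 SE, adjusted p = 0.00146) and Sf3b4, an SF3b subunit that binds RNA beside the branch point (-0.48 ± 0.12 SE, adjusted p = 0.0052, lost without RNA brown D5 library 2 or white D5 library 1). Hnrnpa0 had 91.3 and 87.6 RPKM in brown D5, against 223 and 163 in white D5. In footprints Snrpc (1.22 ± 0.31 SE, adjusted p = 0.0208) and Snrpb2 (0.77 ± 0.20 SE, adjusted p = 0.0244) were higher in brown D5. Both calls were lost when RPF brown D5 library 1 or 2 or white D5 library 2 was left out, which gave 0 calls in all. In Eff 4 genes were lower and 1 higher in brown D5, where 5.16% and 2.24% of all genes were. Srsf5 was lowest (-1.16 ± 0.15 SE, adjusted p = 0.000259), followed by Hnrnph1 (-0.99 ± 0.21 SE, adjusted p = 0.00805, lost under 3 alternatives) and Sf3b1, the SF3b subunit that touches the branch point helix (-0.87 ± 0.18 SE, adjusted p = 0.00737, lost without RNA white D5 library 2). Snrpc was higher (1.34 ± 0.37 SE, adjusted p = 0.0327, lost under 10 alternatives). Leaving out 1 library moved this count of 5 to between 1, without RNA white D5 library 2, and 9, without either RPF brown D0 library.

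Whether the lineages differed in their change was tested as the D5 change in brown minus that in white cultures, from the same 8 libraries per assay as the 4 culture comparisons above. In RPF 16 genes had the higher change in brown cultures and 3 the lower, where 20% and 11.3% of all genes did, with a median of 0.52 beside 0.20. In RNA 19 had the higher and 2 the lower, where 21.6% and 13.7% did, with a median of 0.37 beside 0.08. In Eff 7 had the higher and 4 the lower, where 9.79% and 5.78% did. The D5 change in RNA was also lower in brown cultures for 9 of 10 fibroblast genes, 4 of 8 proliferation genes and Lyz2, and their part was not tested.

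**Figure D4:**
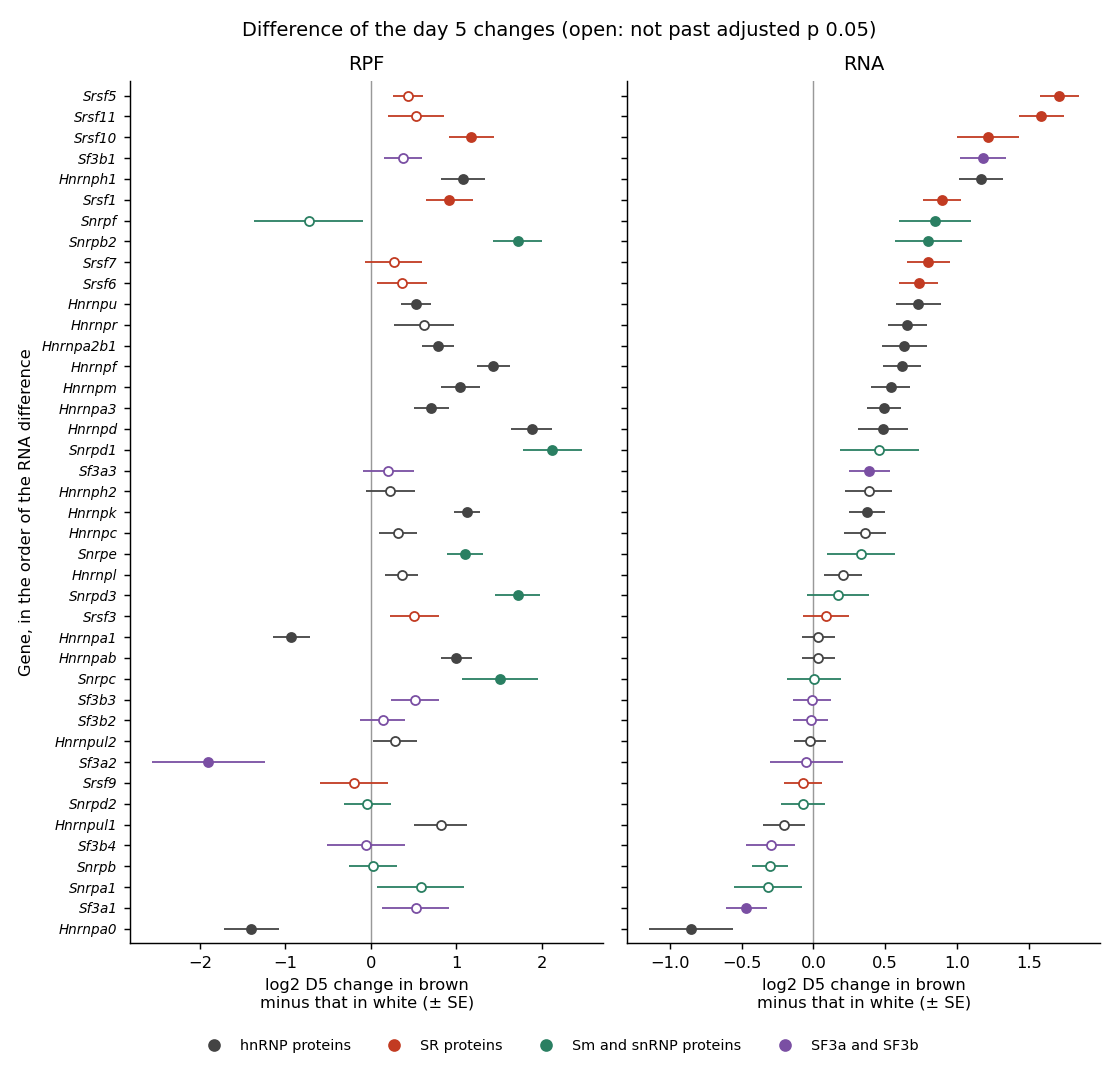
Difference of the D5 changes, brown minus white, in RPF (left) and RNA (right) on the log2 scale for each of the 41 genes, ordered by the RNA difference and coloured by class, with bars of ± 1 SE and open points where the adjusted p (limma) was not under 0.05. The SR genes Srsf5, Srsf11 and Srsf10 lead the RNA panel at 1.71, 1.59 and 1.22, and Hnrnpa0 is last at -0.86.

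In RNA the difference was led by SR genes, 6 of 8 of which passed, all with the smaller fall or a rise in brown cultures. They were Srsf5 (1.71 ± 0.14 SE, adjusted p = 4.13e-06), Srsf11 (1.59 ± 0.16 SE, adjusted p = 2.55e-05), Srsf10 (1.22 ± 0.22 SE, adjusted p = 0.00138), Srsf1, Srsf6 and Srsf7. Srsf11 had 73.4 and 68.9 RPKM in brown D5, against 76.5 and 73.8 in brown D0, and 32.2 and 29.8 in white D5, against 103 and 93.8 in white D0. Srsf10 had 56.1 and 64.8 RPKM in brown D5, against 70.3 and 67.8 in brown D0, and 29.1 and 22.1 in white D5, against 64.6 and 70.2 in white D0. In both genes the white D5 libraries were the low ones and the other 3 culture groups lay closer together. The titles of the white D5 RNA libraries carry a letter i before SUB that the other white culture libraries lack, and its meaning is not given. In D5 footprints 0 of 8 SR genes were higher and 0 lower in brown cultures, where 5.48% and 8.26% of all genes were. At an unadjusted p under 0.05 in limma, 1 was higher and 1 lower. Hnrnpa0 (-0.86 ± 0.29 SE, adjusted p = 0.0376) and Sf3a1 (-0.47 ± 0.14 SE, adjusted p = 0.0228) had the lower change in brown cultures, and these calls were lost under 8 and 6 alternatives.

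In RPF the difference was led by other genes, Snrpd1 (2.12 ± 0.35 SE, adjusted p = 0.000767), Hnrnpd (1.88 ± 0.24 SE, adjusted p = 0.000157) and Snrpd3 (1.72 ± 0.27 SE, adjusted p = 0.000575). Snrpd1 rests on 5 and 4 reads in brown D0, so its SE can understate the counting error. Snrpd3 had 227 and 230.2 RPKM in brown D5, against 152 and 194 in brown D0, and 210.0 and 142 in white D5, against 434 and 418 in white D0. Its values rest on 14 and 16 reads in brown D0 and 64 and 21 in white D5. Hnrnpd had 88.1 and 110.5 RPKM in white D5, against 296 and 263 in white D0, beside the brown values given above. In both genes the white D0 libraries were the high ones. The lower change in brown cultures was that of Hnrnpa1 (-0.93 ± 0.22 SE, adjusted p = 0.00663), Hnrnpa0 (-1.40 ± 0.32 SE, adjusted p = 0.00561) and Sf3a2 (-1.90 ± 0.67 SE, adjusted p = 0.0452, lost under 14 of 21 alternatives). In Eff the higher changes in brown cultures were led by Snrpd1 (1.66 ± 0.47 SE, adjusted p = 0.0216, lost under 4 alternatives), Snrpd3 (1.54 ± 0.37 SE, adjusted p = 0.00987) and Hnrnpd (1.39 ± 0.30 SE, adjusted p = 0.00474). The lowest of those past the threshold were Srsf5 (-1.28 ± 0.21 SE, adjusted p = 5e-04), Srsf11 (-1.06 ± 0.35 SE, adjusted p = 0.0483), which was lost under 20 alternatives, and Hnrnpa1 (-0.97 ± 0.24 SE, adjusted p = 0.0114), which was lost under 1. The lowest Eff difference of any member, -1.85, missed the threshold. With the replicate number as a block the Eff count was 3, with 2 higher and 1 lower, in place of 11.

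In tissue most of these genes had less RNA in BAT than in eWAT. In RNA 27 of 41 were lower and 2 higher in BAT, where 50.2% of all genes were lower and 19.1% higher, with a median of -0.47 beside -0.30, and after quantile scaling 19 were lower and 4 higher. Lower in BAT were 13 of 17 hnRNP, 6 of 8 SR, 6 of 7 SF3 and 2 of 9 Sm and snRNP genes. In RPF 13 were lower and 1 higher, where 28.1% and 11.6% of all genes were, with a median of -0.35 beside -0.31. This split was 4 lower and 3 higher after median-of-ratios scaling and 6 and 2 after quantile scaling, and the total of 14 was 7 without RPF BAT library 1, 6 without BAT library 2, 8 without eWAT library 1 and 9 without eWAT library 2. In Eff 0 were lower and 1 higher, where 0.933% and 3.12% of all genes were, and at an unadjusted p under 0.05, 2 were lower and 4 higher.

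**Figure D5:**
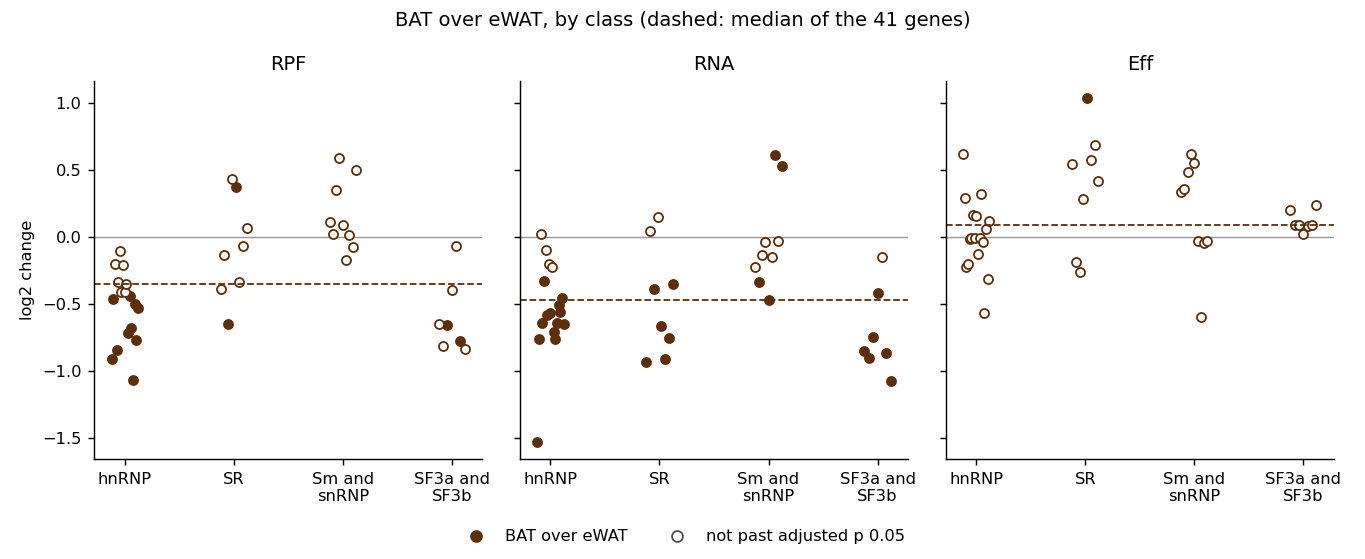
Log2 difference of BAT over eWAT in RPF, RNA and Eff for each of the 41 genes by class, filled where the adjusted p (limma) was under 0.05, with dashed lines at the member medians of -0.35, -0.47 and 0.09. Srsf5 is the filled point above 0 in Eff, at 1.04, and no Sm or snRNP gene is filled in RPF.

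The lowest tissue differences in RNA were those of Hnrnpa0, Sf3b4 and Srsf1. Hnrnpa0 had 52.5 and 93.1 RPKM in BAT, against 197 and 206 in eWAT (-1.53 ± 0.21 SE, adjusted p = 2.26e-05). Sf3b4 had 17.0 and 19.4 RPKM in BAT, against 36.2 and 40.6 in eWAT (-1.08 ± 0.12 SE, adjusted p = 3.91e-06). Srsf1, the prototype SR protein, had 77.7 and 87.3 RPKM in BAT, against 162 and 152 in eWAT (-0.93 ± 0.10 SE, adjusted p = 1.72e-06). The tissues did not overlap in these genes. Snrpd3 (0.61 ± 0.16 SE, adjusted p = 0.00352) and Snrpf (0.53 ± 0.18 SE, adjusted p = 0.0173) were higher in BAT, and the first was lost without RNA eWAT library 1 and the second under 3 alternatives. In footprints Hnrnpr, an hnRNP with a role in neuronal mRNA transport, was lowest in BAT, with 25.9 and 22.4 RPKM, against 62.5 and 40.7 in eWAT (-1.07 ± 0.25 SE, adjusted p = 0.00416), a call lost without RPF eWAT library 1. Hnrnpa0 (-0.91 ± 0.22 SE, adjusted p = 0.00619, lost without RPF BAT library 2 or eWAT library 2) and Hnrnpa3 (-0.84 ± 0.14 SE, adjusted p = 0.000452) followed. Srsf5 had 288 and 297 RPF RPKM in BAT, against 238 and 215 in eWAT (0.37 ± 0.13 SE, adjusted p = 0.0314, lost under 4 alternatives). Its RNA was 291 and 279.9 RPKM in BAT, against 422 and 485 in eWAT. Its Eff was therefore higher in BAT (1.04 ± 0.15 SE, adjusted p = 0.000376). Fibroblast genes summed to 1290 and 1378 RNA RPKM in BAT, against 3921 and 3507 in eWAT, and proliferation genes to 106 and 101.6 in BAT, against 147.9 and 164.7 in eWAT. The proliferation gene Rrm1 went against the sum in its mean, with 15.9 and 13.6 RPKM in BAT, against 11.7 and 13.7 in eWAT, values that overlapped. Pcna made up most of the proliferation sum in BAT, with 65.1 and 61.6 RPKM, against 76.8 and 88.2 in eWAT. Lyz2 had 200.6 and 191.4 RPKM in BAT, against 859.2 and 805.1 in eWAT. Their part in the tissue differences was not tested.

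Other splicing genes, 105 measured of 146 listed, were read from the same fits, and up to 2 per direction are named by the smallest adjusted p. The list is mixed and includes factors of the exon junction, of mRNA export and of Sm assembly. Of its LSm genes only Lsm12, Lsm14a and Lsm14b were measured, and Lsm2 to Lsm8 were not. In RNA 51 (48.6%) fell and 12 (11.4%) rose in brown cultures at D5, where 44.9% of all genes fell and 29.7% rose. In white cultures 83 (79%) fell and 2 (1.9%) rose, where 53.4% and 27.5% of all genes did. The share that fell thus lay near that of all genes in brown cultures and above it in white. In brown cultures Ddx39, an RNA helicase of mRNA export (-1.48 ± 0.11 SE, adjusted p = 2.68e-08), and Khdrbs1, the splicing regulator Sam68 (-1.39 ± 0.085 SE, adjusted p = 5.95e-09), fell. In white cultures the named falls were those of Thoc1, a THO complex subunit (-2.06 ± 0.13 SE, adjusted p = 7.55e-09), and Tra2a, an SR-related enhancer protein (-1.82 ± 0.10 SE, adjusted p = 1.99e-09). Snrnp27, a tri-snRNP protein, rose in both, by 1.09 ± 0.15 (SE), adjusted p = 1.69e-05 and 0.49 ± 0.15 (SE), adjusted p = 0.00785, the second lost without RNA white D5 library 1 or white D0 library 2. Qk, an RNA-binding regulator of splicing, rose in brown cultures (0.67 ± 0.11 SE, adjusted p = 9.57e-05) and Celf2, a regulator of the CELF family, in white cultures (0.38 ± 0.15 SE, adjusted p = 0.031, lost without either RNA white D5 library or white D0 library 1). In RPF 23 (21.9%) fell and 15 (14.3%) rose in brown cultures, where 34.7% and 26.0% of all genes did, both below the shares of all genes. Ybx1, a cold-shock domain protein that binds RNA (-2.71 ± 0.18 SE, adjusted p = 3e-08), and Raly, an hnRNP-related protein (-2.11 ± 0.21 SE, adjusted p = 1.22e-06), fell. Cwc15, a protein of the PRP19-associated complex (1.45 ± 0.22 SE, adjusted p = 7.67e-05), and Qk (1.20 ± 0.23 SE, adjusted p = 0.000593) rose. In white cultures 49 (46.7%) fell and 2 (1.9%) rose in RPF, where 36.1% and 16.7% of all genes did. Rbm3, a cold-induced RNA-binding protein (-1.37 ± 0.13 SE, adjusted p = 1.93e-06), and Khdrbs1 (-1.87 ± 0.21 SE, adjusted p = 7.77e-06) fell, and Prpf8, the large U5 protein (0.83 ± 0.16 SE, adjusted p = 0.000842), and Snrnp27 (1.14 ± 0.41 SE, adjusted p = 0.0344) rose. The Snrnp27 call was lost under 5 alternatives, with values from 0.48 to 1.79.

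Between the lineages, 30 of the 105 (28.6%) were lower and 7 (6.67%) higher in brown than in white RPF at D0, where 24.9% of all genes were lower and 12.4% higher. Tardbp, an RNA-binding protein of the nucleus (-0.91 ± 0.15 SE, adjusted p = 0.000658), and Tra2b, a partner of SR proteins (-1.08 ± 0.19 SE, adjusted p = 0.000764), were lower. Ybx1 (1.84 ± 0.18 SE, adjusted p = 1.81e-05) and Srrm2, a large SR-related protein of the spliceosome (1.38 ± 0.21 SE, adjusted p = 3e-04), were higher. In D0 RNA 2 were lower, Ddx39 (-0.46 ± 0.11 SE, adjusted p = 0.0272) and Raly (-0.43 ± 0.10 SE, adjusted p = 0.0277), and 1 higher, Mbnl1, a splicing regulator of development (0.73 ± 0.13 SE, adjusted p = 0.00541), where 0.854% and 2.90% of all genes were. Ddx39 and Raly were lost when any 1 of the 4 D0 RNA libraries was left out, and Mbnl1 without brown D0 library 1 or white D0 library 1. At D5, 51 (48.6%) were higher and 8 (7.62%) lower in brown RNA, where 32% and 19.9% of all genes were. Clk1, a kinase of SR proteins (2.24 ± 0.18 SE, adjusted p = 1.68e-06), and Luc7l2, a U1-associated protein (1.37 ± 0.10 SE, adjusted p = 1.14e-06), were higher, and Ddx39 (-0.38 ± 0.11 SE, adjusted p = 0.0083) and Khsrp, a KH-type regulator (-0.40 ± 0.12 SE, adjusted p = 0.0109, lost without RNA brown D5 library 2 or white D5 library 1), were lower. Among the 15 measured SR-related proteins and kinases, 11 were higher and 0 lower in brown D5 RNA, and 13 fell and 0 rose in white cultures. Both counts of 0 were also 0 at an unadjusted p under 0.05 in limma. In D5 RPF 3 were higher and 0 lower in limma (5 lower at an unadjusted p under 0.05), where 5.48% and 8.26% of all genes were, among them the step 2 factor Slu7 (1.63 ± 0.31 SE, adjusted p = 0.00373) and Cwc15 (0.86 ± 0.22 SE, adjusted p = 0.021, lost under 4 alternatives).

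The D5 change in RNA was higher in brown cultures for 43 of these 105 genes (41%) and lower for 0 in limma (1 at an unadjusted p under 0.05), where 21.6% and 13.7% of all genes were. The smallest adjusted p were those of Luc7l2 (1.49 ± 0.14 SE, adjusted p = 1.71e-05) and Clk1 (2.51 ± 0.25 SE, adjusted p = 2.41e-05). In RPF it was higher for 26 (24.8%), among them Cwc15 (1.92 ± 0.31 SE, adjusted p = 0.00074) and Tardbp (1.38 ± 0.22 SE, adjusted p = 0.000595), where 20% of all genes were. It was lower for 6 (5.71%), among them Ybx1 (-1.53 ± 0.26 SE, adjusted p = 0.000945) and Srrm2 (-1.47 ± 0.29 SE, adjusted p = 0.00259), where 11.3% were. In tissue 61 (58.1%) were lower and 5 (4.76%) higher in BAT in RNA, where 50.2% and 19.1% of all genes were. Rbm3 (-1.39 ± 0.12 SE, adjusted p = 2.17e-07) and Snrnp70, a protein of the U1 snRNP (-1.15 ± 0.10 SE, adjusted p = 2.62e-07), were lower. Snrnp27 (0.79 ± 0.15 SE, adjusted p = 0.000363) and Qk (0.54 ± 0.11 SE, adjusted p = 0.00076) were higher. In RPF 13 (12.4%) were lower and 1 (0.952%) higher, where 28.1% and 11.6% of all genes were, so fewer were called in either direction than among all genes. Rbm3 (-1.37 ± 0.13 SE, adjusted p = 3.53e-06) and Ddx39b, a helicase of splicing and export (-1.06 ± 0.16 SE, adjusted p = 0.000147), were lower, and Celf1, a regulator of the CELF family (0.78 ± 0.27 SE, adjusted p = 0.0332, lost when any 1 of the 4 tissue RPF libraries was left out), was higher.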

How the data were processed

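Ribosome footprints and RNA were measured in 24 libraries, 2 for each of 6 groups and 2 assays. Per the submitters' processing notes, cutadapt 1.8.3, TopHat2 2.0.9 and Bowtie 1.0.0 were used. The authors mapped reads to the most abundant transcript per gene, with 1 site per read and no mismatch, and deposited RPKM over the coding sequence, which was used as it stands. The genome build is not given in the sources used here. Groups follow the sample labels, and 0 columns were left unmapped.

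Genes with a value above 0 in all libraries were fitted as log2 RPKM without a pseudocount in limma 3.58.1 (R 4.3.3), with a trend in the prior variance and 1 variance per gene over the 12 libraries of an assay. Eff was the interaction of assay and group over all 24, with 1 variance per gene over both assays, although the RPF libraries were shallower. The p-values were adjusted over 5035 genes (Benjamini and Hochberg) within each of 6 comparisons, with a threshold of 0.05. In each comparison and assay the text names up to 3 genes per direction with the largest passing change. In RPF and RNA it also names up to 2 of the other splicing genes per direction with the smallest adjusted p. The naming rule also held the 2 genes of each class with the highest RNA, but their changes are not given in every comparison. Hnrnpk and Srsf6, which are among these, and Hnrnpf and Snrpc were picked in some comparisons after their values were seen. The members and lists were chosen with earlier results of these data known.

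Alternatives were a pseudocount of 1, median-of-ratios and quantile scaling, filters at a mean of 5 RPKM or 20 RPF reads, no trend, voom weights, separate groups, a replicate block, subtraction of the D5 part and leaving out each library. For Eff, weights per assay were also run. Reads were recovered from RPKM and coding length within 0.05 of a whole number in all libraries for 4769 of 4841 genes. They set the counting precision of the RPF values. The main fits did not weight values by reads, so an SE or p-value at few reads can understate the counting error. The fits were also run on simulated counts with a fixed dispersion and no deviating library. That setting cannot show how far scaling or a single library moves a result. Python 3.11.15, numpy 2.4.6, pandas 2.3.3 and matplotlib 3.10.9 were used. Promoter sequences are those of RefSeq (GRCm38.p6).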

Additional observations from a re-analysis of the deposited data

Results flagged for a closer look

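The change with differentiation differed between the lineages, by the test of the difference itself, for 19 of the 41 genes in RPF, 21 in RNA and 11 in Eff. In RPF the log2 difference, brown minus white, was 2.12 for Snrpd1, 1.88 for Hnrnpd and 1.72 for Snrpd3, and -0.93 for Hnrnpa1, -1.40 for Hnrnpa0 and -1.90 for Sf3a2. Snrpd1 rests on 5 and 4 reads and Snrpd3 on 14 and 16 reads in brown D0, and Sf3a2 on 4 and 19 reads in white D0. The test did not weight values by these reads and can understate the counting error. Hnrnpd rests on 110 and 128 reads in brown D5 and 22 and 20 in brown D0. In RNA it was 1.71 for Srsf5, 1.59 for Srsf11 and 1.22 for Srsf10, and -0.47 for Sf3a1 and -0.86 for Hnrnpa0. In Eff it was 1.66 for Snrpd1, 1.54 for Snrpd3 and 1.39 for Hnrnpd, and -0.97 for Hnrnpa1, -1.06 for Srsf11 and -1.28 for Srsf5. The 3 measures share libraries and are not independent of each other.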

How the results depend on the processing

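Of 121 named results past the threshold, 85 stayed past it in the same direction under every alternative run. The count of members past the threshold changed by over 1.5 times in these cases. For BAT against eWAT in RPF it was 14, 7 after median-of-ratios scaling and 8 after quantile scaling, and 6 to 18 with 1 library left out. For brown against white D5 in RPF it was 2, 1 after quantile scaling, 1 without the trend and 0 to 3 with 1 library left out. For the difference of the D5 changes in RPF it was 19, and 12 after quantile scaling. For brown against white D0 in RNA it was 0, 5 after quantile scaling, 12 with the groups alone, 1 with voom weights and 0 to 3 with 1 library left out, 3 without either RNA BAT library. For white D5 against D0 in Eff it was 19, 11 with the replicate block and 6 to 19 with 1 library left out (6 without RNA white D5 library 2, 8 and 10 without RNA white D0 library 1 and 2, 12 without RPF white D0 library 1). For brown against white D5 in Eff it was 5, 2 with the replicate block, 3 without the trend and 1 to 9 with 1 library left out. For the difference of the D5 changes in Eff it was 11, 3 with the replicate block and 7 to 12 with 1 library left out, 7 without RNA brown D0 library 2. Srsf5 RNA in brown D5 against D0 turned to -0.0935 after quantile scaling, and Sf3a1 RNA in white D5 against D0 to 0.000551. The cause was not tested. Over all genes, median-of-ratios scaling moved the median log2 change most for white D5 against D0 in RPF, to -0.0352 in place of -0.377. Same-numbered libraries deviated together in 0 of 6 RPF and RNA pairs and 0 of 15 RPF pairs of groups (correlation over 0.1) and in 6 of 15 RNA pairs, so the numbers were not taken as pairs. The RNA correlations ran from -0.333 to 0.355, so in some RNA pairs libraries of different number deviated together. The RNA duplicates may therefore not be independent between groups. BAT and eWAT, and the 2 assays of each, came from the same mice, but whether equal numbers mark the same pool is not given in the sources used here. With the replicate block the tissue counts were 15 in RPF, 28 in RNA and 1 in Eff, in place of 14, 29 and 1. The brown D0 RPF libraries limit what can be seen in genes with few reads.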
